A study of Homo sapiens with 4 samples.

Results

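The genes described here were 10 that encode subunits of the transcription factor NF-kB and its best known feedback products: NFKB1, NFKB2, RELA, RELB, NFKBIA, NFKBIE, NFKBIZ, TNFAIP3, BIRC3 and ICAM1. They were taken by gene symbol, and all 10 were found among the 26485 gene identifiers measured. The 10 were chosen with earlier results of these data known. RNA came from SW1736 and 8505C, 2 lines derived from anaplastic thyroid cancer, cultured for 24 h with 1.5 µM DHT or with its vehicle DMSO. DHT stands for dihydrotanshinone in this series, a compound of the tanshinone class and not the androgen that shares the abbreviation. The 4 libraries were SW1736 with DHT, SW1736 with DMSO, 8505C with DHT and 8505C with DMSO. Each group was 1 library, so no difference given here has a replicate check or a test, and a line stands for itself and not for the tumour type.

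NF-kB is a dimer of Rel proteins that waits in the cytoplasm, held there by IkB proteins. When receptors for tumour necrosis factor, interleukin 1 or microbial products activate the IkB kinase complex, IkB is marked for destruction and the dimer moves to the nucleus. Among the genes it switches on are those of its own inhibitors, so the response limits itself; the mRNAs of these inhibitors are therefore widely read as a record of NF-kB activity. In thyroid cancer cells, as in other carcinoma cells, the pathway is known for its links to survival and to cytokine production.

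Levels are given as TPM, a share of all transcripts that is scaled for gene length and sums to the same total in each library. Differences are those of log2(TPM + 1), which understates the fold of low genes, and 2-fold means at least 1 on that scale. They were set beside the 11706 protein-coding genes that averaged 1 TPM or more across libraries, and all 10 genes were among these. Aligned bases came to 3.83 and 3.66 Gb in SW1736 with DHT and DMSO, and to 4.13 and 3.25 Gb in 8505C. In SW1736 most genes were lower with DHT: among genes that averaged 5 TPM or more the median difference was -0.43 in SW1736 and -0.03 in 8505C. Values relative to that median gene are therefore given too, and called centred.

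The label of thyroid origin was met only in part. PAX8, a thyroid transcription factor, was at 117 and 87.1 TPM in SW1736 with DHT and DMSO and at 0.240 and 0.282 in 8505C, while NKX2-1, another, was at 174 and 69.8 TPM in 8505C and listed at 0 in both SW1736 libraries. FOXE1, of the same role, was at 22.3 and 60.6 TPM in SW1736 with DHT and DMSO, and at 0.101 TPM or less in 8505C. The immune cell gene PTPRC was at 0.0498 TPM or less in every library. The 13 immune markers summed to 24.9 and 15.7 TPM in SW1736 with DHT and DMSO and to 67.5 and 51.0 in 8505C, mostly from CD68, and CD3E, CD3D, CD2, MS4A1, FCGR3A and NKG7 were listed at 0 throughout. The 12 endothelial markers summed to 26.3 and 41.8 TPM in SW1736 and to 571 and 498 in 8505C, with PECAM1 at 0.207 TPM or less and KDR listed at 0. In 8505C with DHT and DMSO, ENG was at 248 and 222 TPM, CDH5 at 147 and 128, EGFL7 at 78.4 and 67.8, TIE1 at 59.7 and 43.4 and FLT1 at 37.1 and 35.7, and of these FLT1, TIE1 and CDH5 had a value of 0 in SW1736. The part of these marker genes in the results was not tested.

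Promoter sequences were searched for the site to which NF-kB binds. The genes were chosen as subunits and feedback products of NF-kB, so such sites in them are no independent support. RefSeq promoter windows (GRCh38.p14), from 250 bases before a transcription start to 50 after it, were held for 8 of the 10 genes, in 13 windows; RELB and NFKBIE had none. The windows were searched on both strands for GGNNNTTCC, a short form of the kappa B site to which Rel dimers bind, and for the longer kappa B consensus, which can overlap it. The short form was in 9 of the 13 windows and in 20.1% of 35116 promoter windows of all genes. The consensus was in 8 of the 13 and in 11.3% of all windows. Both windows of RELA lacked either motif. A match says that the letters are there, not that a protein binds.

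The windows below belong to 4 of the 5 genes that were at least 2-fold higher with DHT in SW1736, and to NFKB1 and ICAM1, which carry matches and were not. Capitals mark matches to either motif. They lie at chr6:137867009-137867308 (TNFAIP3, plus strand), chr14:35404700-35404999 (NFKBIA, minus), chr3:101827740-101828039 (NFKBIZ, plus), chr11:102317234-102317533 (BIRC3, plus), chr4:102501109-102501408 (NFKB1, plus) and chr19:10270870-10271169 (ICAM1, plus).
TNFAIP3: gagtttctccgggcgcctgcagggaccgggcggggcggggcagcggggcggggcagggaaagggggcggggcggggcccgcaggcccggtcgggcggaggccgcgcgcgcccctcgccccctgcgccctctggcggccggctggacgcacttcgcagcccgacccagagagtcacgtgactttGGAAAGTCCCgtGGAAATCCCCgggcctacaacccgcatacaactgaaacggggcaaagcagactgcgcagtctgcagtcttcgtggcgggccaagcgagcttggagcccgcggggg
NFKBIA: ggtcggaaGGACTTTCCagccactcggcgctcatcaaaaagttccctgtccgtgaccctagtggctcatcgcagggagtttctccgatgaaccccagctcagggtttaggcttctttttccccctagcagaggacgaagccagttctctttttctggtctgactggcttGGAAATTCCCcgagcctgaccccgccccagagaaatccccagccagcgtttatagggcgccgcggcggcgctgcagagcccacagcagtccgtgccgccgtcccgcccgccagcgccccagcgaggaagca
NFKBIZ: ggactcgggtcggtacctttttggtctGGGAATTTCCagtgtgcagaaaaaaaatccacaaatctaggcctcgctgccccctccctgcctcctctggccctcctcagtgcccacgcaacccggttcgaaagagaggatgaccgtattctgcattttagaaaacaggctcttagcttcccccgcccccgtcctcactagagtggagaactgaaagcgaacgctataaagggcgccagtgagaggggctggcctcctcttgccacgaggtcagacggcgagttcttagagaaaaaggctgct
BIRC3: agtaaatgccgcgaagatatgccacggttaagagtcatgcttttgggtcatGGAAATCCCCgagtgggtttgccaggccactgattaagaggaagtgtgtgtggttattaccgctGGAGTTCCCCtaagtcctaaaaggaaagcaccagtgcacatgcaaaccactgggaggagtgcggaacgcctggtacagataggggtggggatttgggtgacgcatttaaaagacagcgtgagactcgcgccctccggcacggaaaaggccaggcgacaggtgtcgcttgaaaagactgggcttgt
NFKB1: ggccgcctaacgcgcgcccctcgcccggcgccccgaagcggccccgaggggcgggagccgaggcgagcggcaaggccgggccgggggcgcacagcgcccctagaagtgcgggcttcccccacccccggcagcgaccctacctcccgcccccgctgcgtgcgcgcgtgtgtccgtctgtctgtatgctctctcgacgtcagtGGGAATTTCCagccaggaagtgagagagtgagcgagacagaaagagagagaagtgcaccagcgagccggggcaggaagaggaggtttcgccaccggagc
ICAM1: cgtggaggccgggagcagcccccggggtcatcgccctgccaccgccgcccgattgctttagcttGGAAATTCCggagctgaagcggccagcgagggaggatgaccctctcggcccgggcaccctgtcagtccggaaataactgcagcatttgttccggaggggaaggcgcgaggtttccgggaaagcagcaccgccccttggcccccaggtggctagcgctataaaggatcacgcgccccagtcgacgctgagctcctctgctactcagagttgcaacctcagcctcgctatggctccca

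TNFAIP3 held 2 separate matches, GGGACTTTCC and GGGGATTTCC on the minus strand, whose leftmost bases lay 67 and 55 bases before the start. In NFKBIA the site 81 bases before the start read GGGAATTTCC on the minus strand, and the same 10 letters stood in NFKBIZ at 223 and in NFKB1 at 49 bases before the start. BIRC3 shared GGGGATTTCC with TNFAIP3, at 199 bases before the start. ICAM1 held only the short form, GGAAATTCC, at 186 bases before. NFKB1 and NFKBIA thus carried the same 10 letters, on opposite strands of their windows, but NFKBIA also held GGACTTTCC at 242 bases before the start. With DHT in SW1736 the NFKBIA mRNA was far higher and that of NFKB1 close to its level with DMSO. NFKB2 also carried matches and, at 0.38 in SW1736, was not 2-fold higher with DHT. Its windows 2 and 3, not printed, held 2 distinct sites each. NFKBIZ and NFKB1 are shown by window 1. Window 2 of NFKBIZ held 1 distinct site and that of NFKB1 held 0.

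In SW1736, the mRNAs of some NF-kB inhibitors and feedback genes and of the subunit RELB were far higher with DHT than with DMSO, while NFKBIE, ICAM1 and the other 3 subunits were short of 2-fold. Of the 10 genes, 5 were at least 2-fold higher with DHT (TNFAIP3, NFKBIA, NFKBIZ, RELB and BIRC3), beside 2.78% of all genes compared. None was 2-fold lower, beside 15.6%. Centred on the median gene, NFKBIE joined them, so that 6 were higher, beside 4.78%, and none lower, beside 4.07%. The median log2 difference of the 10 was 1.02, or 1.45 centred, and that of all genes compared was -0.42. Because the 10 were chosen with earlier results of these data known, the shares of all genes give a scale and no independent support. In RNA from a whole culture, more cells with an mRNA and more of it per cell cannot be told apart.

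**Figure D1:**
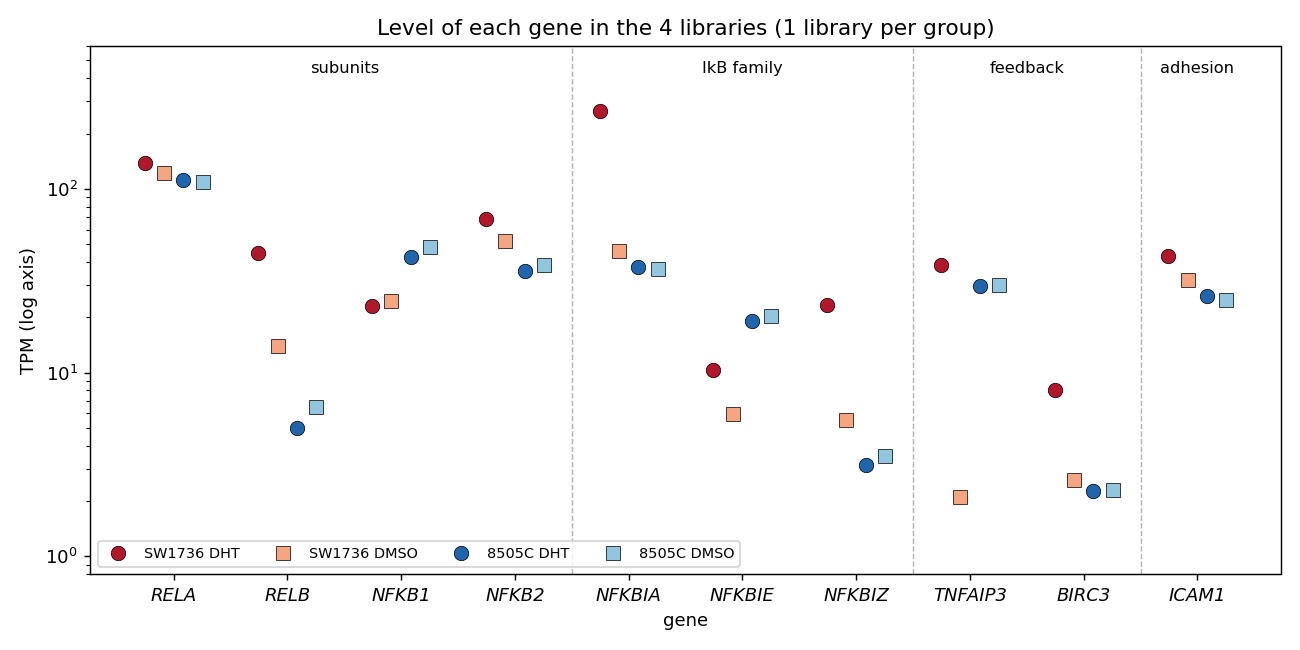
Level of each of the 10 genes, in TPM on a log axis, in SW1736 with DHT, SW1736 with DMSO, 8505C with DHT and 8505C with DMSO; each point is 1 library. The points of TNFAIP3 stand at 38.7, 2.11, 29.6 and 29.9 TPM in that order, and the 2 points of 8505C lie close together for every gene.

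Among the subunits, RELA, the activating partner of the common dimer, was the most abundant mRNA of the family in every library. It stood at 139 TPM in SW1736 with DHT, against 121 with DMSO, and at 112 TPM in 8505C with DHT, against 109 with DMSO. Its log2 difference was 0.19 in SW1736 (0.62 centred) and 0.03 in 8505C. RELA thus varied the least of the 10 between the highest and the lowest library in ratio.

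NFKB1 encodes the precursor of the DNA-binding partner of RELA. It was at 23.1 TPM in SW1736 with DHT, against 24.5 with DMSO, and at 42.6 TPM in 8505C with DHT, against 48.2 with DMSO. 8505C was the higher line with either treatment. With DHT the log2 difference of NFKB1 was -0.08 in SW1736, or 0.35 once centred, so its direction there depended on the scaling, and -0.17 in 8505C.

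NFKB2 encodes the precursor of the partner of RELB in the slower, noncanonical branch. It stood at 68.4 TPM in SW1736 with DHT, against 52.2 with DMSO, and at 35.6 TPM in 8505C with DHT, against 38.4 with DMSO. The log2 difference was 0.38 in SW1736 (0.81 centred) and -0.11 in 8505C, both short of 2-fold.

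RELB was the subunit that stood apart. Its mRNA was at 45.0 TPM in SW1736 with DHT, against 13.9 with DMSO, and at 5.03 TPM in 8505C with DHT, against 6.47 with DMSO. The SW1736 library with DHT was thus above the other 3 by a wide margin, and with either treatment 8505C was below SW1736. The log2 difference was 1.63 in SW1736, rank 180 from the highest of 11706 genes, and -0.31 in 8505C.

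The makeup of the subunit mRNAs followed from this. The 5 Rel genes, with REL at 1.64 and 2.87 TPM in SW1736 with DHT and DMSO, summed to 277 TPM in SW1736 with DHT and 215 with DMSO, and to 197 and 204 TPM in 8505C. RELB made up 16.3% of that sum in SW1736 with DHT and 6.48% with DMSO, against 2.56% and 3.17% in 8505C. RELA made up 50.1% and 56.5% in SW1736 and 56.9% and 53.5% in 8505C. NFKB1 held a larger share in 8505C, at 21.7% with DHT and 23.6% with DMSO, than in SW1736, at 8.34% and 11.4%.

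Of the inhibitors, NFKBIA encodes IkB-alpha, the inhibitor that is destroyed and resynthesised in each round of activation (chromosome 14, 35401510 to 35404754, hg38, minus strand). It was at 266 TPM in SW1736 with DHT, against 45.7 with DMSO, and at 37.7 TPM in 8505C with DHT, against 36.8 with DMSO. In SW1736 with DHT, NFKBIA was the most abundant of the 10 genes, above RELA, whereas in the other 3 libraries it lay below RELA. The ratio of NFKBIA to RELA was 1.92 in SW1736 with DHT and 0.377 with DMSO, and 0.337 and 0.336 in 8505C. Its log2 difference was 2.51 in SW1736 (rank 88, and 2.94 centred) and 0.03 in 8505C.

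NFKBIE encodes IkB-epsilon, a related cytoplasmic inhibitor. It was at 10.3 TPM in SW1736 with DHT, against 5.95 with DMSO, and at 19.1 TPM in 8505C with DHT, against 20.3 with DMSO. With either treatment 8505C was above SW1736. The log2 difference in SW1736 was 0.70, short of 2-fold, or 1.13 centred, and in 8505C it was -0.08. A small RNA of many copies, MIR7641-2, has a row that spans NFKBIE and TNFAIP3, at 2.57 TPM or less in each library.

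NFKBIZ encodes IkB-zeta, an inducible nuclear protein of the IkB family that acts as a cofactor at some NF-kB targets. It was at 23.3 TPM in SW1736 with DHT, against 5.50 with DMSO, and at 3.15 TPM in 8505C with DHT, against 3.52 with DMSO. The log2 difference was 1.90 in SW1736 (rank 136) and -0.12 in 8505C. The neighbouring NXPE3, on the same strand, overlaps the start of NFKBIZ and was at 2.10 TPM in SW1736 with DHT and 7.33 with DMSO, the opposite direction.

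Together, the 3 cytoplasmic IkB genes, with NFKBIB at 91.8 and 70.8 TPM in SW1736 with DHT and DMSO, summed to 368 TPM in SW1736 with DHT and to 123 TPM with DMSO. In 8505C the sums were 100.5 TPM with DHT and 99.5 with DMSO. Per TPM of the 5 Rel genes, IkB mRNA was 1.33 in SW1736 with DHT and 0.570 with DMSO, and 0.511 and 0.487 in 8505C. SW1736 with DHT was the library in which IkB mRNA exceeded subunit mRNA. These are amounts of mRNA, and no protein was measured.

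**Figure D2:**
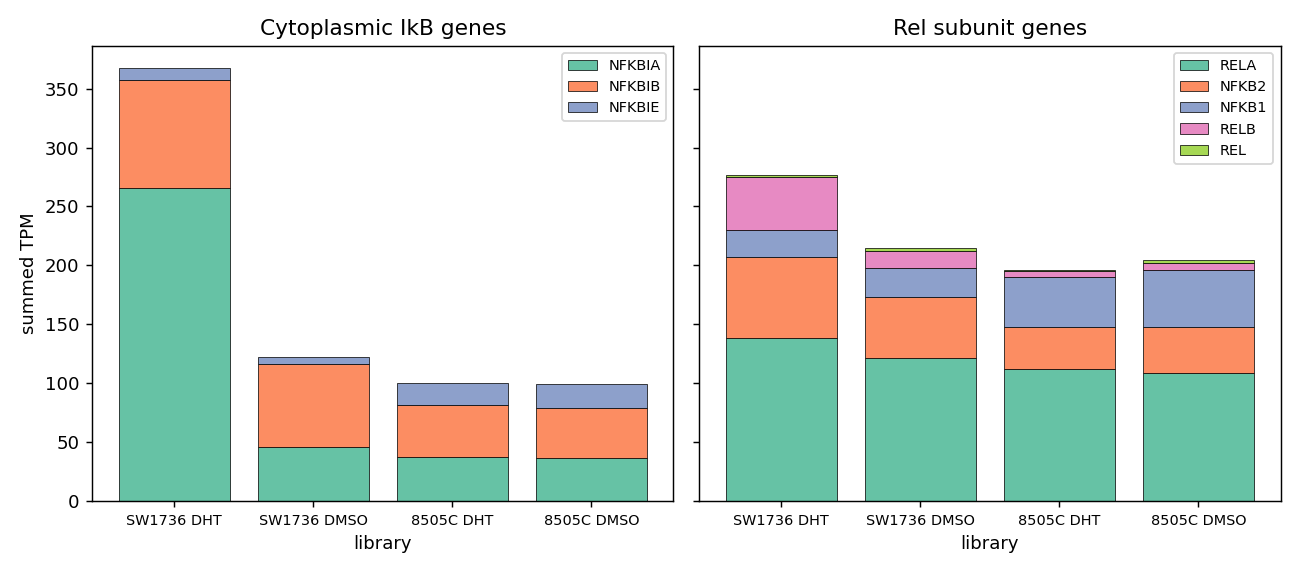
Summed TPM of the 3 cytoplasmic IkB genes (left) and the 5 Rel subunit genes (right) in each library, stacked by gene on one axis that starts at 0. The IkB bar of SW1736 with DHT reaches 368 TPM, mostly NFKBIA, against 123 TPM with DMSO, while the 4 subunit bars lie between 197 and 277 TPM.

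TNFAIP3 encodes a ubiquitin-editing enzyme that shuts off signalling upstream of the IkB kinases (chromosome 6, 137867188 to 137883314, plus strand). It was at 38.7 TPM in SW1736 with DHT, against 2.11 with DMSO, an 18.4-fold ratio of TPM. In 8505C it was at 29.6 TPM with DHT, against 29.9 with DMSO. TNFAIP3 was thus low only in SW1736 with DMSO, and with DHT the SW1736 library came near the level that 8505C held with either treatment. Its log2 difference was 3.68 in SW1736, rank 34 of 11706, and -0.02 in 8505C (0.02 centred). It was 2.62 in SW1736 with a pseudocount of 5 TPM and 4.31 with coverage in place of TPM. An antisense RNA, LOC100130476, overlaps its start and was at 1.24 TPM or less in each library.

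BIRC3 encodes a ubiquitin ligase that guards cells from death by tumour necrosis factor and restrains the noncanonical branch. It was the lowest of the 10 in 3 of the 4 libraries and second to TNFAIP3 in SW1736 with DMSO. Its level was 8.04 TPM in SW1736 with DHT, against 2.59 with DMSO, and 2.27 TPM in 8505C with DHT, against 2.31 with DMSO. The log2 difference was 1.33 in SW1736 (rank 236) and -0.02 in 8505C (0.01 centred). With a pseudocount of 5 TPM the SW1736 value was 0.78, short of 2-fold.

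ICAM1, an adhesion molecule to which leukocytes bind and a classical NF-kB target, was at 43.1 TPM in SW1736 with DHT, against 31.8 with DMSO. In 8505C it was at 26.3 TPM with DHT, against 24.8 with DMSO. The log2 difference was 0.43 in SW1736 (0.86 centred) and 0.08 in 8505C. Both were short of 2-fold, and the order of the 4 libraries was that of RELA.

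**Figure D3:**
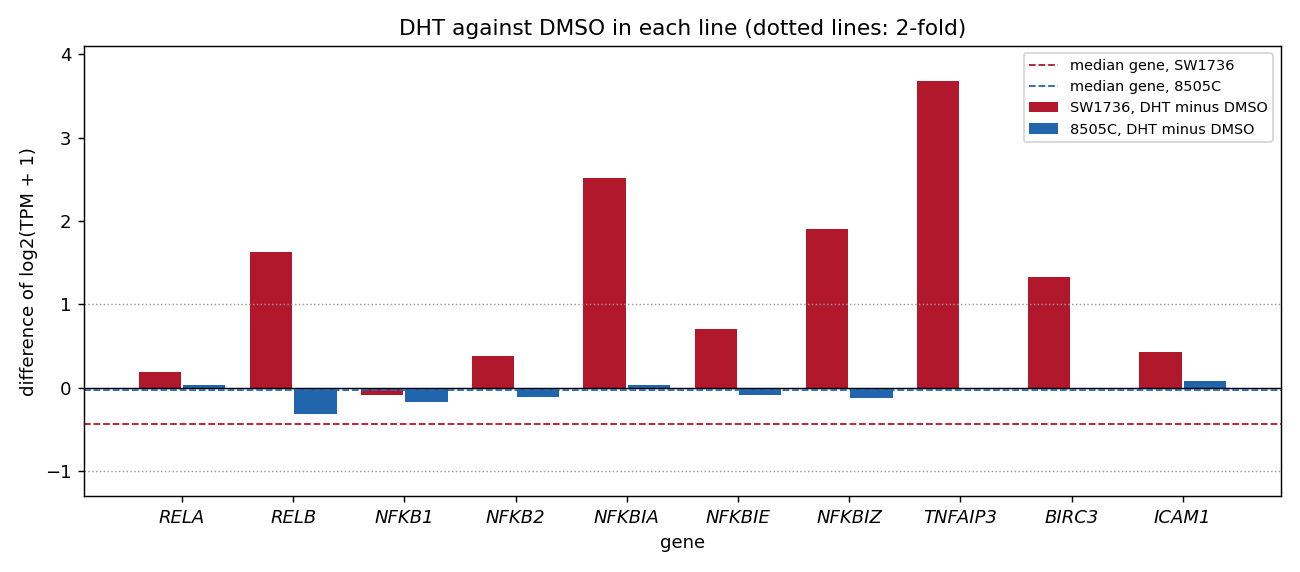
Difference of log2(TPM + 1) between DHT and DMSO for each of the 10 genes in SW1736 and in 8505C, 1 pair of libraries per bar. Dotted lines mark 2-fold and dashed lines the median gene, at -0.43 in SW1736 and -0.03 in 8505C; the SW1736 bars reach from -0.08 (NFKB1) to 3.68 (TNFAIP3), and the 8505C bars from -0.31 (RELB) to 0.08 (ICAM1).

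In 8505C, none of the 10 genes was 2-fold higher with DHT, beside 0.273% of all genes, and none 2-fold lower, beside 0.171%. So few genes differed in this line that a count of 0 among 10 is near the background. The 10 lay between -0.31 and 0.08, with a median of -0.05, beside -0.03 for all genes. RELB was the lowest of them. Whether the lines differed was not tested.

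mRNA length went with the difference in SW1736. With genes in 3 equal groups by length, the median log2 difference was -0.14 in the shortest group, -0.46 in the middle one and -0.72 in the longest. Of the genes at 2-fold, NFKBIA (1558 bases) and RELB (2294) were in the shortest group, NFKBIZ (3923) in the middle, and TNFAIP3 (4735) and BIRC3 (5197) in the longest, where most genes were lower. With trends on length, GC content and level removed, 5 of the 10 genes were 2-fold higher in SW1736 and none lower, beside 4.61% and 2.57% of all genes under that correction.

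Between the untreated lines, 2 of the 10 genes were 2-fold apart, a share near the background. TNFAIP3 stood at 29.9 TPM in 8505C and 2.11 in SW1736, a log2 difference of 3.31, and NFKBIE at 20.3 and 5.95 TPM, a difference of 1.61. Both were at least 2-fold higher in 8505C, beside 9.97% of all genes, and none was 2-fold lower, beside 12.6%. NFKB1 (0.95) and RELB (-0.998) came close to 2-fold. The other 6 lay between -0.52 for NFKBIZ and -0.12 for BIRC3. NFKB1 passed 2-fold with coverage in place of TPM (1.01), and RELB with a pseudocount of 0.1 TPM (-1.09). With a pseudocount of 5 TPM, NFKB1 was at 0.85 and RELB at -0.72. With trends on length, GC content and level removed, NFKB1 was at 1.01 and RELB at -0.64.

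With DHT the order was other. Relative to SW1736, 8505C had 4 genes at least 2-fold lower, beside 10.6% of all genes, and none 2-fold higher, beside 24.7%. They were RELB (-2.93), NFKBIA (-2.79), NFKBIZ (-2.55) and BIRC3 (-1.47). Centred, NFKB2 and ICAM1 joined them, so that 6 were lower, beside 16.3%, and none higher, beside 14.4%. TNFAIP3 was at 29.6 TPM in 8505C and 38.7 in SW1736, a difference of -0.38. This comparison uses the SW1736 library with DHT, which is also in the comparison of treatments, so it is no second piece of evidence.

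The rest of the pathway was read from 8 lists of 125 other genes, of which 107 reached a mean of 1 TPM. These lists too were chosen with earlier results of these data known. In SW1736, 7 of the 107 were 2-fold higher with DHT and 4 lower, beside 2.78% and 15.6% of all genes, with a median of -0.31. Among the 7, CSF2 and TRAF1 reached a mean of 1 TPM only through the SW1736 library with DHT, so their place in the count is no support. Centred, 17 were higher and 1 lower, beside 4.78% and 4.07%. In 8505C, none of the 107 was 2-fold apart, and their median was 0.01.

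The sensors and transducers of the pathway mostly had values below 0 in SW1736, as most genes did. Of 15 IkB kinase genes and related kinases, 1 was 2-fold higher and none lower, beside 2.78% and 15.6% of all genes. It was MAP3K8, a kinase that links NF-kB signals to the ERK pathway (6.43 TPM with DHT, 2.70 with DMSO, log2 1.01). IRAK4, a kinase of interleukin 1 signalling, was at -0.96, the IkB kinase IKBKB at -0.78 and RIPK1 at -0.76, and the list's median was -0.56 (-0.13 centred). In 8505C the largest were TBK1 at -0.33 and RIPK2 at 0.28. None of 13 receptors was 2-fold apart, with the interleukin 1 receptor partner IL1RAP at 0.95, IL17RA at -0.87, the tumour necrosis factor receptor TNFRSF1A at -0.59 and TNFRSF12A at 0.56. Centred, 1 of the 13, IL1RAP at 1.38, was 2-fold higher and none lower, beside 4.78% and 4.07% of all genes. The receptors' median was -0.15, or 0.28 centred. The largest in 8505C were TNFRSF11A at -0.30 and IL1RAP at -0.17.

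Of 22 adaptors and ubiquitin ligases, 1 was 2-fold higher and 3 lower, beside 2.78% and 15.6% of all genes. TRAF1, itself a known NF-kB target, was at 4.79 TPM with DHT and 1.44 with DMSO (1.25), and passed the filter on low values only through the library with DHT. FADD, the adaptor that joins death receptors to caspases, was at 21.5 and 83.1 TPM (-1.90), TRAF3 at -1.08 and BTRC, which marks IkB for destruction, at -1.06. Centred, 4 were higher and 1, FADD, lower, beside 4.78% and 4.07% of all genes. In 8505C the largest differences here were FBXW11 at -0.61 and XIAP at 0.41.

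Of 6 further Rel and IkB genes none was 2-fold apart in SW1736: NFKBID was at -0.61, REL at -0.55, NKRF at -0.51 and NFKBIB at 0.37. Of 15 further brakes none was 2-fold apart, with TNIP2 at -0.89, ITCH and N4BP1 at -0.85 and TANK at -0.83. Their median was -0.54, or -0.11 centred. Centred, 1 of the 15 was 2-fold higher, beside 4.78% of all genes. This was ZC3H12A, which encodes a nuclease that degrades cytokine mRNAs. It was at 8.67 TPM with DHT and 4.78 with DMSO (0.74, or 1.17 centred), and is named after its values were seen. In 8505C these 2 lists reached 0.35 for NFKBID, -0.34 for REL, 0.41 for PDLIM2 and -0.27 for USP18.

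Of 21 further targets none was 2-fold apart in SW1736, with PTX3 at 0.97, IL32 at 0.77, TAP1 at -0.71 and CCND1 at -0.70, and a median of 0.00 (0.43 centred). Centred, 3 of the 21 were 2-fold higher, PTX3 at 1.39, IL32 at 1.20 and CD83 at 1.02, beside 4.78% of all genes. In 8505C the largest were IL32 at 0.59 and CD83 at -0.52. SELE and VCAM1, adhesion genes induced by NF-kB in endothelium, were listed at 0 in all libraries. Of 8 chemokine and cytokine genes 5 were 2-fold higher, beside 2.78% of all genes, and 7 centred, beside 4.78%. CCL2 was at -0.40, and IL6 at 0.74 and IL1B at 0.80 were short of 2-fold before centring. Among the 5 were CSF2 at 47.9 TPM with DHT and 1.41 with DMSO, and CXCL8 at 62.9 and 2.32. CXCL2 was at 2.28 on the log2 scale, and CXCL3 stood at 27.8 TPM with DHT and was listed at 0 with DMSO. In 8505C, CXCL1 was at 0.60 and CXCL8 at 0.52. CSF2 passed the filter on low values only through the library with DHT. Of 7 adhesion partners of ICAM1, 1 was 2-fold lower, ALCAM (-1.08, or -0.65 centred), beside 15.6% of all genes. Centred, none of the 7 was 2-fold apart. CD58 was at -0.81, ITGB2 at -0.55 and ICAM5 at -0.52 before centring. In 8505C, ICAM2 was at 0.76 and ITGB2 at 0.29.

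**Figure D4:**
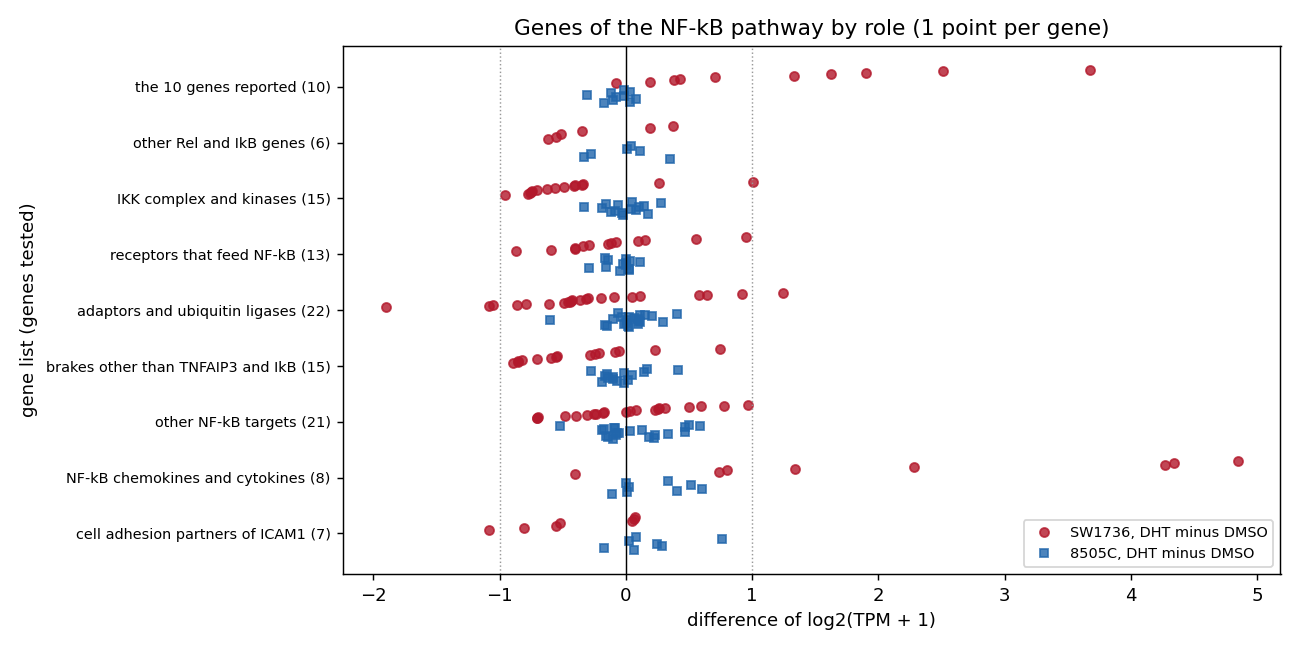
Difference of log2(TPM + 1) between DHT and DMSO for the genes of each role, 1 point per gene that averaged 1 TPM or more, SW1736 above 8505C in each row. Dotted lines mark 2-fold; in SW1736 the 10 genes and the cytokines extend to 3.68 (TNFAIP3) and 4.85 (CXCL3, listed at 0 with DMSO), the other lists lie between -1.90 and 1.25, and no 8505C point reaches 2-fold.

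Between the untreated lines, 17 of the 107 other pathway genes were at least 2-fold higher in 8505C and 20 lower, beside 9.97% and 12.6% of all genes. Those named here are the 2 with the largest difference in each list, and TNIP1 among them was short of 2-fold. CD40, a receptor of the tumour necrosis factor family, was listed at 0 in both 8505C libraries and stood at 86.6 TPM in SW1736 with DMSO. TRADD, the adaptor of the tumour necrosis factor receptor, was likewise listed at 0 in 8505C and at 26.3 TPM in SW1736 with DMSO. TLR4, which senses bacterial lipopolysaccharide, was at 24.9 TPM in 8505C and 0.404 in SW1736. Among targets, LIF was at 1.70 and 107 TPM and TNFAIP2 at 0.196 and 35.9 TPM in 8505C and SW1736 with DMSO. IKBKG, the regulatory subunit of the IkB kinase, was at 19.1 and 57.4 TPM, and BCL3 at 14.2 and 45.6. On the log2 scale, 8505C minus SW1736, NFKBID was at -2.03, TRAF1 at -1.22, TAX1BP1 at -1.02, TNIP1 at 0.82 and RIPK2 at 1.35. CXCL8 was at 4.60, CXCL1 at 3.73, ICAM2 at 2.69 and ICAM5 at -2.27.

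The genes whose values over the 4 libraries lay nearest to the median profile of the 10, by Euclidean distance of centred log2(TPM + 1), were PTP4A1 (0.114), COQ10B (0.123), SIAH2 (0.138), PFDN2 (0.144) and HERPUD1 (0.149). Nearest to TNFAIP3 were RGS2 (0.473), NDRG1 (0.494), MINOS1-NBL1 (0.998), DUSP5 (1.175) and DUSP1 (1.28). NDRG1 stood at 194 TPM in SW1736 with DHT, against 9.31 with DMSO, and at 100.3 TPM in 8505C with DHT, against 100.6 with DMSO. With 4 libraries such likeness is a description.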

How the data were processed

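Libraries were made from 1 µg of total RNA with the Universal Plus mRNA-Seq kit, per the labels' protocols. The submitters' processing notes name bcl2fastq 2.20, StringTie and the hg38 build. Not given in the sources used here are an aligner, an annotation, a StringTie version and the use of strand in counting. Reads of overlapping genes may therefore be mixed. Per the file headers, the authors deposited the TPM, FPKM and mean read coverage of each gene.

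Rows of one identifier were summed. Of 26485 identifiers, 25362 were matched to a RefSeq gene (23758 by symbol, 671 through GENCODE 29 and 933 by synonym), 19031 of them protein-coding. Depth is the median ratio of coverage to FPKM; read counts are unknown, so no interval is given. With 1 library per group no test was made: a fit with the lines as replicates was left out by design, since it would leave 1 residual degree of freedom. The genes named by rule are the 10, those of each list with the largest differences and the 5 nearest profiles. Per list these were 4 with DHT in SW1736, 2 in 8505C and 2 between the lines with DMSO. Named outside this rule were CCL2, IL6, IL1B, ZC3H12A, SELE and VCAM1, the marker genes, and genes that overlap or neighbour others. The 10 genes and all lists were chosen with earlier results of these data known. Length and GC content are those of the longest coding GENCODE 29 transcript, known for 11342 genes. Steps were tested on simulated data. Python 3.11.15, pandas 2.3.3 and numpy 2.4.6 were used.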

Additional observations from a re-analysis of the deposited data

Results flagged for a closer look

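For 6 of the 10 genes the difference with DHT had opposite signs in the 2 lines, higher in SW1736 and lower in 8505C. The gap between the lines was 3.69 for TNFAIP3, 2.02 for NFKBIZ, 1.94 for RELB, 1.35 for BIRC3, 0.79 for NFKBIE and 0.49 for NFKB2, on the log2 scale. These gaps were not tested, and 1 library stands behind each value. In 8505C the differences themselves were small, from -0.31 for RELB to -0.02 for TNFAIP3 and BIRC3. Centred on the median gene, TNFAIP3 and BIRC3 were at 0.02 and 0.01 in 8505C, so that their signs were no longer opposite, while NFKB1, at 0.35 in SW1736 and -0.14 in 8505C, became opposite.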

How the results depend on the processing

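With DHT in SW1736, 4 to 6 of the 10 genes passed the threshold as higher and none as lower under every alternative run. In 8505C none passed it under any. The threshold was 2-fold except in the run at 1.5-fold. The alternatives were pseudocounts of 0.1 and 5 TPM, a mean of at least 5 TPM (where BIRC3 drops out) or no filter, FPKM, median scaling, TPM without ribosomal protein genes, scaled coverage, a 1.5-fold threshold, all identifiers, genes of 1 row, and removal of trends on length, GC content and level, the last chosen after seeing the data. The median of the 10 in SW1736 lay between 0.63 (pseudocount of 5) and 1.52 (coverage). At 1.5-fold, 4 genes in place of 2 differed between the untreated lines and 8 in place of 4 between the lines with DHT, since a lower threshold admits more. Among values of single genes, 8 moved by over 1.5-fold, such as BIRC3 in SW1736, at 2.07 with the trends removed; the cause was not tested. No value at 2-fold reversed. Each group held 1 library, so no samples pair within a line; a fit over both lines, with the line as a block, could have been made and was left out. Coverage depth limits the lowest genes most, BIRC3 and TNFAIP3 in SW1736 with DMSO.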

Other observations

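TRADD, listed at 0 in both 8505C libraries, lies on chromosome 16 from 67154186 to 67159909 (hg38). The protein-coding gene before it, B3GNT9, was also listed at 0 in 8505C with DHT and with DMSO, and stood at 24.3 and 29.7 TPM in SW1736. The gene after it, FBXL8, was at 0.136 and 0.0365 TPM in 8505C and at 3.30 and 7.46 TPM in SW1736. CD40 did not share this on the side of NCOA5, which was at 43.4 and 45.1 TPM in 8505C with DHT and DMSO, and at 55.6 and 74.2 TPM in SW1736. Its neighbour on the other side, CDH22, was at 0.0233 TPM or less in every library, so that side cannot tell. These genes were chosen after the values of TRADD and CD40 were seen, and whether DNA or transcription differs there was not tested.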
